A study of Mus musculus with 6 samples.

Results

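The insulin receptor and its main downstream signaling genes were examined in interscapular brown adipose tissue (iBAT) of control and *ob/ob* mice. The 9 genes were *Insr*, *Irs1*, *Irs2*, *Pik3r1*, *Pik3ca*, *Akt1*, *Akt2*, *Foxo1*, and *Tbc1d4*, chosen by name for their place in the pathway and found on the array through the RefSeq accession of each probe. They were 9 of 19011 genes tested and had 16 of 35448 probes tested. *Insr* and *Akt2* had 3 probes each, *Irs1*, *Foxo1*, and *Tbc1d4* had 2 each, and the other 4 genes had 1. The study compared 3 control with 3 *ob/ob* male mice of the C57BL/6 background, labelled as 16 weeks old, with 1 Agilent single-dye (Cy3) mouse array per sample. *Ob/ob* mice carry a mutated leptin gene in all cells and become obese, and the labels give no further genotype for the controls and no treatment in either group. No label tells if an array holds RNA of 1 mouse or of a pool, so the p values given here measure the spread between these samples.

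Insulin binds its receptor on the cell surface, which phosphorylates the adaptors IRS1 and IRS2. These recruit the lipid kinase PI3K, and the lipid it makes activates AKT, which then phosphorylates FOXO1, keeping it out of the nucleus, and TBC1D4, releasing vesicles that carry the glucose transporter GLUT4 to the surface. Brown adipose tissue takes up much glucose for its weight in response to insulin. The signaling steps themselves are changes in phosphorylation and position of proteins, and the arrays measured only the RNA of these genes.

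Values are log2 signals after quantile normalization, and differences are *ob/ob* minus control on that log2 scale, so that a difference of -1 is a 2-fold lower level. A probe's level cannot be set against that of another probe. The arrays of control 3 and *ob/ob* 3 stood apart from the other arrays of their groups. Over all probes, control 3 had a Spearman correlation of 0.94 with *ob/ob* 2 and 0.64 with control 1, and *ob/ob* 3 had one of 0.86 with control 1 and 0.49 with *ob/ob* 2. Both arrays thus went against their labels over all probes. Whether their labels are right was not tested, and every group difference given here takes the labels as they stand. Differences of members, lists, and named list genes are also given without both arrays, as values with no test, since these arrays were picked for resembling the other group and leaving them out tends to widen the difference between groups by construction. Of the 10 brown adipocyte markers, 7 were detected on all 6 arrays, *Ucp1*, *Cidea*, and *Cox8b* among them, *Prdm16* on 4, and *Elovl3* and *Ebf2* on 3. Control 1, control 3, and *ob/ob* 1 shared 1 scan, and each of the other arrays had a scan of its own, so that the value within a scan is *ob/ob* 1 minus the mean of control 1 and control 3.

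None of the 16 probes differed between the groups after adjustment over all probes (limma, lowest adjusted p = 0.999992), and the share of all probes that did was 0%. Without adjustment, 1 of the 16 probes had a p under 0.05, against 3.51% of all probes, and the same probe was the only one of the 16 whose groups did not overlap, against 7.92% of all probes. This was the brighter probe of *Irs1*. Taking the brightest probe of each gene, 1 of 9 genes passed the unadjusted threshold, against 3.73% of all genes, and 1.69% of all genes passed it with lower levels in *ob/ob* iBAT. The brightest probe was lower in *ob/ob* iBAT for 7 of 9 genes, with a median difference of -0.29, and 57.2% of all genes were lower, with a median of -0.086. When each array was scaled to its 75th percentile instead, the median of all probes moved from -0.073 to -0.32 and the median of the 9 genes to -0.49, with 7 of 9 again lower.

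**Figure D1:**
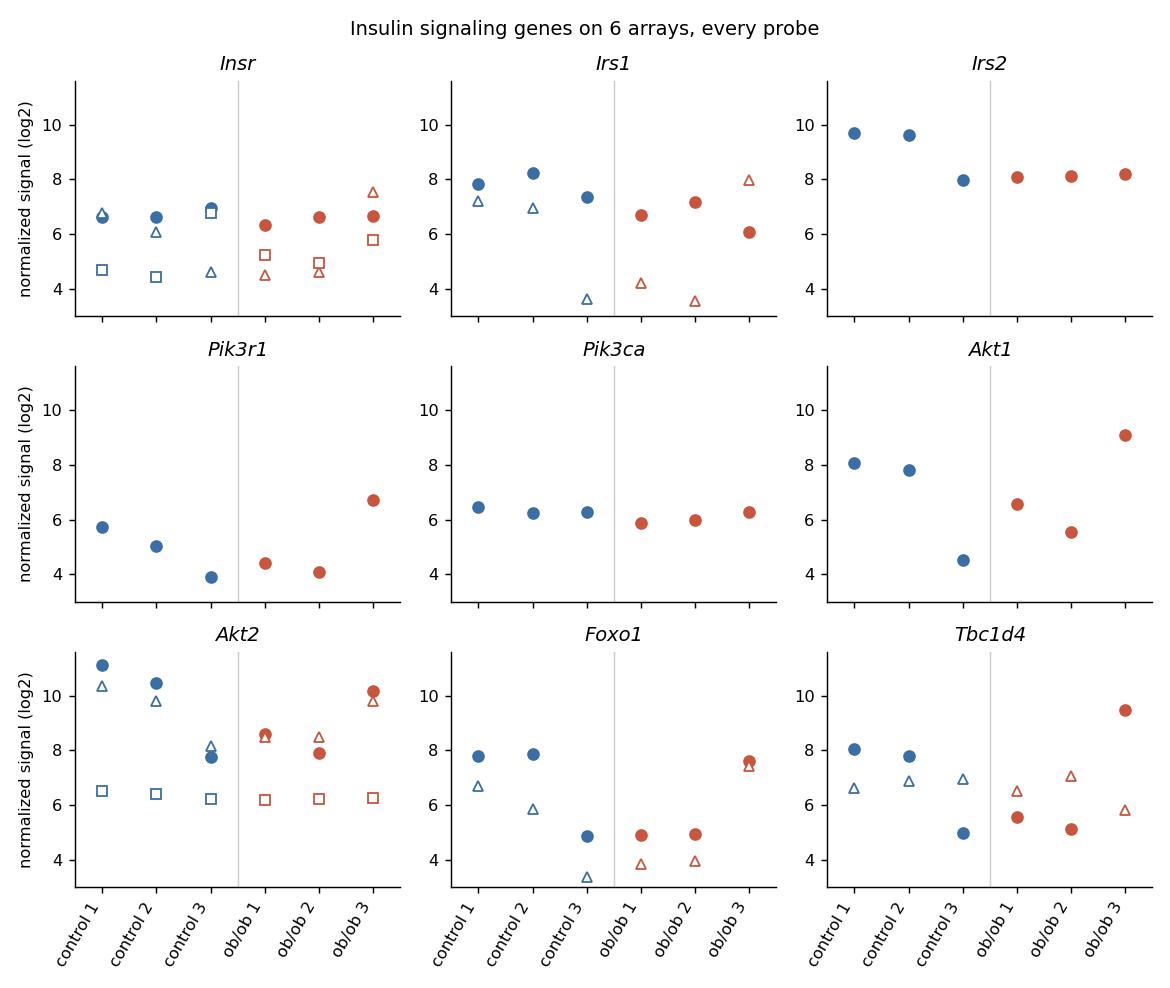
Log2 normalized signal (y axis) of every probe of the 9 genes on each of the 6 arrays (x axis; blue, control; red, *ob/ob*). Filled circles are the brightest probe of a gene and open symbols its other probes; in many probes control 3 lies with *ob/ob* 1 and 2 and *ob/ob* 3 lies with control 1 and 2.

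*Insr* encodes the receptor itself. Its brightest probe (A_55_P2172566) read 6.61, 6.62, and 6.94 in controls and 6.33, 6.61, and 6.66 in *ob/ob* samples. The groups overlapped, and control 3 was the highest of all samples. The difference was -0.19 (SE 0.31, 95% interval -0.94 to 0.56), an interval that holds neither a difference of -1 nor one of 1. The 95% intervals of the other *Insr* probes, -2.65 to 2.08 and -1.64 to 1.68, hold both. The difference of the brightest probe was -0.14 without control 3 and *ob/ob* 3 and -0.45 within the shared scan.

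The 2 other *Insr* probes varied more. The probe A_52_P494514 read 6.78, 6.09, and 4.63 in controls and 4.50, 4.61, and 7.52 in *ob/ob* samples, a difference of -0.29 (SE 0.98). The probe A_55_P2173927 read 4.70, 4.42, and 6.78 in controls and 5.22, 4.95, and 5.79 in *ob/ob* samples, a difference of 0.02 (SE 0.69). Control 3 was the lowest control for the first of these and the highest for the second, so the probes of this gene disagreed on which arrays were high. Without control 3 and *ob/ob* 3 the differences were -1.88 and 0.53, and within the shared scan they were -1.21 and -0.51.

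*Irs1* and *Irs2* encode the main adaptors that dock on the activated receptor. The brightest *Irs1* probe (A_52_P171212) read 7.83, 8.22, and 7.35 in controls and 6.71, 7.19, and 6.10 in *ob/ob* samples. Every *ob/ob* sample lay below every control, with control 3 nearest to *ob/ob* 2. The difference was -1.14 (SE 0.43, 95% interval -2.18 to -0.096), which is 2.20-fold lower, with an unadjusted p of 0.0366 and an adjusted p of 0.999992 (limma). No member passed the unadjusted threshold with 75th percentile scaling, an intensity trend with robust estimation, or the replicate number or the scan as a block, nor without control 1, control 2, *ob/ob* 1, or *ob/ob* 3, so the unadjusted call of *Irs1* was lost in each of these. The exact permutation p was 0.10, the smallest that 3 samples against 3 can give. It was -1.08 without control 3 and *ob/ob* 3 and -0.88 within the shared scan, and with any 1 array left out it lay between -1.40 and -0.85.

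The second *Irs1* probe (A_52_P175242) did not show this separation. It read 7.23, 6.96, and 3.65 in controls and 4.22, 3.56, and 7.997 in *ob/ob* samples. The 2 probes placed *ob/ob* 3 at opposite ends, as the lowest of all samples for the brightest probe and as the highest for the second. The second probe was not above background on control 3 and *ob/ob* 2, and its difference was -0.69 (SE 1.46), or -3.21 without control 3 and *ob/ob* 3 and -1.22 within the shared scan.

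*Irs2* read 9.71, 9.61, and 7.98 in controls and 8.11, 8.14, and 8.22 in *ob/ob* samples. The *ob/ob* samples lay within 0.11 of each other, including *ob/ob* 3, and the groups overlapped only through control 3. The difference was -0.95 (SE 0.53, 95% interval -2.23 to 0.34, exact permutation p = 0.40), or 1.93-fold lower. It was -1.54 without control 3 and *ob/ob* 3 and -0.74 within the shared scan. The log2 ratio of *Irs1* to *Irs2* was -1.30 ± 0.63 in controls and -1.49 ± 0.59 in *ob/ob* samples (SD, n = 3; exact permutation p = 0.70, and 0.70 after adjustment over 3 pairs of genes).

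The start regions of *Irs1* and *Irs2* are shown because these adaptors had the largest differences among the receptor-proximal members and because their promoters carried the same pair of short motifs. Both are the 250 bases before the RefSeq transcription start (GRCm38.p6), 5' to 3' on the gene's own strand, which is the minus strand for both. *Irs1* lies at chr1:82291440-82291689 and *Irs2* at chr8:11008930-11009179. Capitals mark the E-box (CACGTG) and the core of the insulin response element (TGTTTTG).
Irs1: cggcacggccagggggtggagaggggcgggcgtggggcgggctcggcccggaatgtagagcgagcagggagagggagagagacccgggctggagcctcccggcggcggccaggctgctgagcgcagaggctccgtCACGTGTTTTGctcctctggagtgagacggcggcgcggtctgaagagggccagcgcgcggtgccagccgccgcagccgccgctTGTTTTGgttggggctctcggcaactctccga
Irs2: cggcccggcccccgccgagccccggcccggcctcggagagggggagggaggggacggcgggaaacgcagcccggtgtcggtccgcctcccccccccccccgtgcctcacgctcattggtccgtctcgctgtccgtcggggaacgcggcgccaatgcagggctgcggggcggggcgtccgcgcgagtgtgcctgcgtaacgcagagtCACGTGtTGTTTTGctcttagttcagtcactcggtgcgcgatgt

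In *Irs1* the E-box began 115 bases before the start and shared letters with an insulin response element core that began 111 bases before it, and a further core began 32 bases before it. In *Irs2* the E-box began 44 bases and the core 37 bases before the start. Searched on both strands, TGTTTTG was in 5.56% and CACGTG in 6.02% of 32851 RefSeq promoters of this length, and both were in 0.295%. The motifs began within 8 bases of each other in 7 promoters, among them both of these, a distance that was chosen after the sequences were seen. The FOXO motif TGTTTAC was in 3.17% of all promoters and in 1 of the members', that of an *Akt1* transcript. The table held 13 promoters for 8 of the 9 genes, all but *Insr*. These matches describe the letters and not binding.

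PI3K consists of a catalytic and a regulatory subunit, here *Pik3ca* (p110 alpha) and *Pik3r1* (p85 alpha). *Pik3ca* read 6.48, 6.22, and 6.29 in controls and 5.86, 5.97, and 6.29 in *ob/ob* samples. Its range was 0.25 in controls and 0.43 in *ob/ob* samples, and only *ob/ob* 3 lay within the controls. The difference was -0.29 (SE 0.31, 95% interval -1.04 to 0.46), or -0.43 without control 3 and *ob/ob* 3 and -0.52 within the shared scan. *Pik3r1* read 5.73, 5.03, and 3.89 in controls and 4.43, 4.08, and 6.73 in *ob/ob* samples and was not above background on control 3 and *ob/ob* 2. Its difference of 0.20 (SE 0.84) turned to -1.12 without control 3 and *ob/ob* 3 and to -0.38 within the shared scan. The ratio of *Pik3ca* to *Pik3r1*, the remaining pair of the 3, is not read here, because *Pik3r1* was not above background on 2 arrays.

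AKT1 and AKT2 are the kinases at the center of the pathway, and AKT2 is the form tied most to glucose uptake. *Akt1* read 8.05, 7.81, and 4.51 in controls and 6.57, 5.54, and 9.08 in *ob/ob* samples. Control 3 was the lowest and *ob/ob* 3 the highest of all samples, and the difference of 0.27 (SE 1.27, 95% interval -2.79 to 3.33) was smaller than the range within either group. It turned to -1.88 without control 3 and *ob/ob* 3 and was 0.29 within the shared scan.

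The brightest *Akt2* probe (A_55_P2025228) read 11.1, 10.5, and 7.75 in controls and 8.61, 7.88, and 10.2 in *ob/ob* samples. The second probe (A_55_P2066518) showed the same order of controls, with 10.3, 9.82, and 8.14, and 8.50, 8.50, and 9.81 in *ob/ob* samples. Both had overlapping groups through control 3, which lay below every *ob/ob* sample, while *ob/ob* 3 lay below control 1 and control 2. Their differences were -0.89 (SE 1.02) and -0.50 (SE 0.69), and -2.55 and -1.59 without control 3 and *ob/ob* 3. The third probe (A_55_P2066523) lay between 6.19 and 6.53 on all 6 arrays, with a difference of -0.16 (SE 0.30), or -0.26 without control 3 and *ob/ob* 3. Within the shared scan the 3 differences were -0.82, -0.75, and -0.18.

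The log2 ratio of *Akt1* to *Akt2*, read from the brightest probe of each, was -3.06, -2.67, and -3.24 in controls and -2.05, -2.34, and -1.09 in *ob/ob* samples. The groups did not overlap in this ratio, although each gene alone overlapped widely. The ratio was higher by 1.17 in *ob/ob* iBAT (-2.99 ± 0.29 against -1.83 ± 0.66; SD, n = 3; exact permutation p = 0.10, the smallest possible, and 0.30 after adjustment over 3 pairs). It rested on the probe chosen for *Akt2*, since the other *Akt2* probes gave 0.78 and 0.43, with overlapping groups and exact permutation p values of 0.40 and 0.80.

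*Foxo1* encodes the transcription factor that AKT holds out of the nucleus. Its brightest probe (A_51_P138044) read 7.81, 7.88, and 4.85 in controls and 4.89, 4.93, and 7.61 in *ob/ob* samples. The second probe (A_52_P453884) read 6.69, 5.84, and 3.37 in controls and 3.84, 3.96, and 7.43 in *ob/ob* samples and was not above background on control 3 and *ob/ob* 2. In both probes the 6 samples formed a high set of control 1, control 2, and *ob/ob* 3 and a low set of the other 3. The differences were -1.03 (SE 1.11, 95% interval -3.71 to 1.64) and -0.22 (SE 1.26), or -2.93 and -2.36 without control 3 and *ob/ob* 3, and -1.44 and -1.19 within the shared scan.

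*Tbc1d4* encodes AS160, the AKT substrate that gates GLUT4 vesicles. Its brightest probe (A_55_P2024953) read 8.03, 7.79, and 4.96 in controls and 5.55, 5.13, and 9.47 in *ob/ob* samples. The other probe (A_52_P381430) read 6.62, 6.86, and 6.95 in controls and 6.53, 7.06, and 5.83 in *ob/ob* samples. *Ob/ob* 3 was the highest sample for the first probe and the lowest for the second. The differences were -0.21 (SE 1.38) and -0.34 (SE 0.41), or -2.57 and 0.055 without control 3 and *ob/ob* 3, and -0.95 and -0.25 within the shared scan.

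**Figure D2:**
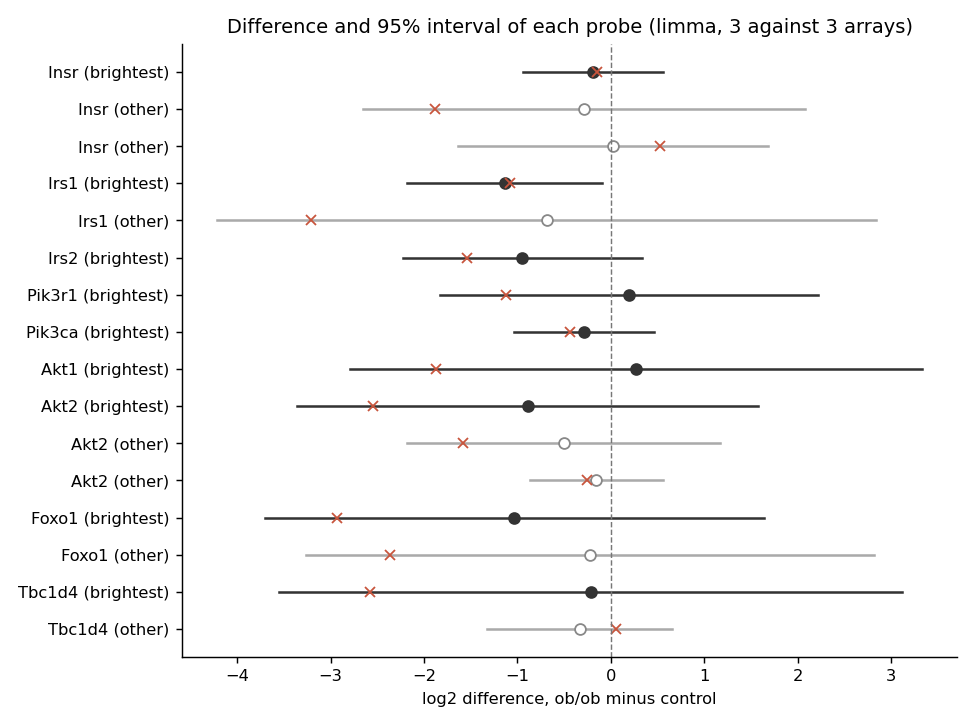
Log2 difference, *ob/ob* minus control (x axis), of the 16 probes (y axis), with 95% intervals from limma over 3 against 3 arrays; filled points are brightest probes, open points other probes, and red crosses the difference without control 3 and *ob/ob* 3. The interval of the brightest *Irs1* probe, -2.18 to -0.096, is the only one that leaves out 0.

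Of the 16 probes, 15 had a within-group range larger than their difference of means. The share of all probes with this trait is not given, so the count is not read as particular to these genes. The range among controls was over 2 log2 units in 9 probes and that among *ob/ob* samples in 8, and the median range of the 16 probes was 2.18 in controls and 1.80 in *ob/ob* samples, against 0.92 and 1.34 over all probes. Control 3 was the lowest control and *ob/ob* 3 the highest *ob/ob* sample together in 11 of 16 probes, an order that 30.4% of all probes had. Without both arrays, 9 of 9 brightest probes and 14 of 16 probes were lower in *ob/ob* iBAT. The shares of all genes and probes lower without both arrays are not given, so these counts are not read as particular to the members. With all arrays, 7 of 9 and 13 of 16 were lower.

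Marker genes of several other cell types also differed between arrays of 1 group. The median level of the 12 skeletal muscle markers was 10.2, 10.7, and 7.79 in controls and 6.00, 5.99, and 12.5 in *ob/ob* samples, with 11 of 12 lower. That of the 8 endothelial markers was 9.16, 9.31, and 7.24 in controls and 6.23, 5.89, and 8.51 in *ob/ob* samples, with 7 of 8 lower. Both lists had control 3 as the lowest control and *ob/ob* 3 as the highest *ob/ob* sample, the order of 11 member probes. The 10 brown adipocyte markers read 9.86, 10.2, and 8.34 in controls and 7.12, 7.01, and 7.33 in *ob/ob* samples, with 9 of 10 lower. Their median was lower in *ob/ob* 3 than in every control, but the single markers were split. *Ob/ob* 3 lay above control 3 for *Ucp1*, *Cidea*, *Prdm16*, *Dio2*, *Cox8b*, and *Ebf2*. It lay below every control for *Ppargc1a*, *Elovl3*, *Adrb3*, and *Zic1*. The 4 erythrocyte markers tested read 7.94, 7.53, and 6.41 in controls and 6.29, 5.88, and 7.16 in *ob/ob* samples.

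The median levels of immune cell markers had the opposite order. The 10 macrophage markers read 6.79, 6.95, and 7.43 in controls and 7.45, 7.37, and 7.24 in *ob/ob* samples, with 3 of 10 lower. The 10 lymphocyte markers read 6.14, 6.39, and 6.80 in controls and 6.57, 6.50, and 6.13 in *ob/ob* samples, with 5 of 10 lower. In both medians control 3 was the highest control and *ob/ob* 3 the lowest *ob/ob* sample. Single macrophage markers were split. *Ob/ob* 3 was the highest *ob/ob* sample for *Cd14*, *Lyz2*, *Mrc1*, *C1qa*, and *Fcgr1*, and the lowest for the other macrophage markers. The 9 white adipocyte markers read 5.99, 6.02, and 6.25 in controls and 6.68, 6.36, and 8.70 in *ob/ob* samples, with 6 of 9 lower. Median differences of the marker genes were -1.26 for muscle (-4.24 without control 3 and *ob/ob* 3), -1.08 for endothelium (-1.91), -2.41 for brown adipocytes (-4.13), -0.43 for erythrocytes (-0.93), 0.38 for macrophages (0.42), -0.02 for lymphocytes (0.33), and -0.13 for white adipocytes (0.063). The part of these markers in the differences of the insulin signaling genes was not tested, and in whole tissue fewer cells of a type and less RNA per cell cannot be told apart.

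The genes whose profile over the 6 arrays lay closest to a member were found by the root mean square difference of centred log2 values over 15876 genes. Those nearest to the brightest *Insr* probe were *Mrgbp* (0.038), *Rsad2* (0.045), and *Slk* (0.061). Those nearest to *Irs1* were *Zfp768* (0.11), *Orm3* (0.12), and *Crygc* (0.15), of which *Orm3* belongs to the acute-phase orosomucoids and *Crygc* encodes a crystallin of the eye lens. *Irs2* lay nearest to *Plcd3* (0.099), *S100a13* (0.10), and *Abhd17a* (0.11), and *Foxo1* to *Ramp2* (0.099), a coreceptor subunit prominent in endothelium, *Gm12070* (0.13), and *Drosha* (0.13). The median gene lay 0.64 from *Insr*, 0.91 from *Irs1*, 0.96 from *Irs2*, and 1.61 from *Foxo1*.

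The rest of the pathway was read from 10 lists of 124 genes, of which 121 were tested, the 9 members among them. None passed after adjustment over all probes. Without adjustment 3 had a p under 0.05, or 2.48%, all lower in *ob/ob* iBAT, a share below the 3.73% of all genes. Of the 121, 80 were lower and 41 higher, with a median difference of -0.19. Of all genes, 57.2% were lower, with a median of -0.086. Groups did not overlap in 4 genes, or 3.31%, against 8% of all genes. These were *Irs1*, the PI3K regulatory subunit *Pik3r2* (-0.54, and -0.48 without control 3 and *ob/ob* 3), and the vesicle SNARE *Vamp2* (-0.84, and -1.13), all lower, and the phosphatase scaffold *Ppp2r1a* (0.53, and 0.76), higher.

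In the lists that follow, the value without control 3 and *ob/ob* 3 stands after that with all arrays. The median of all genes without both arrays is not given, so these values are not read as particular to the pathway. In the receptor-level list 9 of 13 genes were lower, with a median of -0.20 (-0.96 without both arrays) and *Irs1* lowest. Of the PI3K subunits 8 of 9 were lower, with a median of -0.15 (-0.48). *Pik3r3*, a regulatory subunit, was at -1.31 (-2.54) and *Pik3cd*, a catalytic subunit, at -0.0077 (0.65), the highest of those detected on all 6 arrays. Among AKT and its activators 8 of 10 were lower, with a median of -0.13 (-1.15), *Akt2* lowest and *Akt1* highest. The negative regulators were evenly split, 9 lower and 9 higher, with a median of 0.02 (-0.034). The lipid phosphatase *Inppl1* was at -1.66 (-3.87) and the phosphatase catalytic subunit *Ppp2ca* at 1.21 (-0.65).

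Of the branches, 7 of 11 mTORC1 genes were lower, with a median of -0.14 (-0.86). The S6 kinase *Rps6kb1* was at -1.22 (-2.70) and the cap-binding protein *Eif4e* at 1.55 (0.23). In the RAS-MAPK branch 4 of 12 were lower, and the median of 0.12 turned to -0.96. The kinase *Mapk3* (ERK1) was at -0.47 (0.12), and its activators differed in sign, *Map2k1* at 0.68 (-0.31) and *Map2k2*, detected on 5 arrays, at -1.26 (-2.17). Of the AKT substrates 9 of 10 were lower, with a median of -0.34 (-1.85). The glycogen synthase kinase *Gsk3a* was at -1.20 (-3.47) and the *Tbc1d4* relative *Tbc1d1* at 0.07 (-1.13). None of these named genes passed the unadjusted threshold.

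At the ends of the pathway, the GLUT4 traffic list had 6 of 11 genes lower, with a median of -0.006 (-1.13). *Slc2a4*, which encodes GLUT4, read 12.6, 12.3, and 9.21 in controls and 7.48, 7.77, and 10.6 in *ob/ob* samples, a difference of -2.78 (SE 1.20), or -4.84 without both arrays, with overlap through control 3 and *ob/ob* 3. *Vamp2*, which helps GLUT4 vesicles fuse, read 7.16, 7.14, and 6.67 in controls and 6.03, 6.00, and 6.42 in *ob/ob* samples, with a difference of -0.84 (SE 0.33, exact permutation p = 0.10). The small GTPase *Rhoq* had a difference of 1.49 (SE 1.11), which turned to -0.32.

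Of genes that FOXO factors are known to induce, 10 of 15 were lower, with a median of -0.36 (-1.49). The repressor *Bcl6* was at -1.25 (-3.22) and *G6pc*, the glucose-6-phosphatase of liver, at 1.03 (2.92). Of metabolic genes that insulin is known to induce, 10 of 12 were lower, with a median of -0.79 (-2.01). *Fasn*, the fatty acid synthase, read 9.59, 8.96, and 6.79 in controls and 5.80, 5.91, and 7.34 in *ob/ob* samples, a difference of -2.10 (SE 0.83, exact permutation p = 0.20). Its groups overlapped through control 3 and *ob/ob* 3, and without both the difference was -3.42. *Acaca*, which makes malonyl-CoA for fatty acid synthesis, was at -3.49 (SE 1.65), or -6.36 without both arrays, and the desaturase *Scd1* at 0.94 (SE 1.30), which turned to -1.28.

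**Figure D3:**
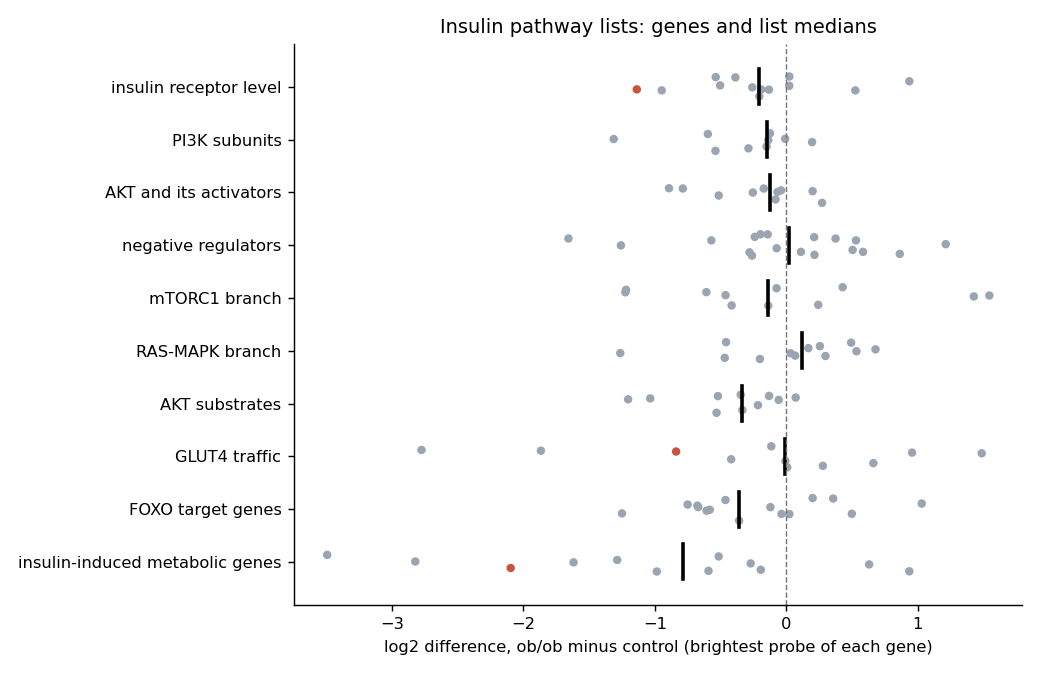
Log2 difference, *ob/ob* minus control (x axis), of the brightest probe of each tested gene in 10 insulin pathway lists (y axis); black bars are list medians, from -0.79 to 0.12, and red points the 3 genes with an unadjusted limma p under 0.05. Vertical scatter within a list has no meaning.

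The direction of 6 of the 9 genes was the same in every setting that could change it. Settings that changed only the detection filter, the test, or the replicate block left each difference unchanged and could not turn a direction. Over all the settings and arrays left out, the brightest probes of *Insr* (-0.45 to -0.061), *Irs1* (-1.40 to -0.85), *Irs2* (-1.54 to -0.64), *Pik3ca* (-0.52 to -0.11), *Akt2* (-2.55 to -0.23), and *Foxo1* (-2.93 to -0.52) were lower each time. *Pik3r1* ranged from -1.12 to 0.70, *Akt1* from -1.88 to 1.03, and *Tbc1d4* from -2.57 to 0.58. Other probes of *Insr* (-1.88 to 0.24 and -0.51 to 0.76), *Irs1* (-3.21 to 0.16), and *Foxo1* (-2.36 to 0.47) had values of both signs. Those of *Akt2* (-1.59 to -0.047 and -0.40 to -0.084) were lower each time.

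**Figure D4:**
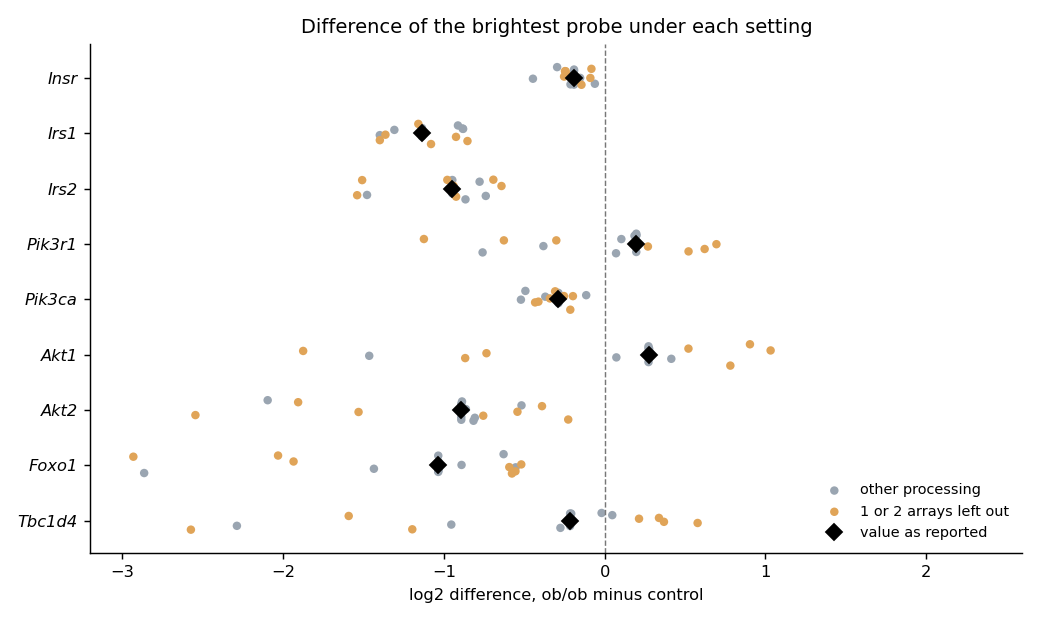
Log2 difference, *ob/ob* minus control (x axis), of the brightest probe of the 9 genes (y axis): black diamonds, the value as reported; grey points, other processing; orange points, with 1 or 2 arrays left out. Points of *Akt1*, *Pik3r1*, and *Tbc1d4* lie on both sides of 0, and those of the other 6 genes lie below 0.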

How the data were processed

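RNA of iBAT from 3 control and 3 *ob/ob* mice was hybridized to 1 array per sample. The intensity of each spot, deposited by the authors, had been read with Agilent Feature Extraction (version 11.0.1.1) and corrected for background within the array. The authors also deposited log2 values, quantile normalized in GeneSpring, which were used as an alternative (Pearson r with the scanner values, 0.987 to 0.998). Between 83.5% and 89.9% of spots per array were well above background. The 75th percentile of the signal before normalization was 94.5 on control 3 and 134 to 292 on the other arrays. The part of this in the group differences was not tested. Precision is limited by how few arrays there were.

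The array's 39429 probes, less 104 with outlier flags, were averaged over their spots and quantile normalized. Detection on 3 or more arrays left 35448 probes, which were tested with limma 3.58.1 under R 4.3.3, with Benjamini-Hochberg adjustment over all probes. Probes were named by RefSeq accession (27234 of 28684 matched). A gene is given by its brightest probe, and members by every probe. From each list, the highest and the lowest gene detected on all 6 arrays and those with an unadjusted p under 0.05 are named, with the 3 genes nearest in profile to 4 members; *Pik3r1*, *Pik3r2*, *Ppp2r1a*, and *Map2k2* are added after their values were seen. 1 gene that the rule covers is counted in its list but not reported here. Ratios of genes were tested with an exact two-sided permutation test. The code was tested on simulated data. Members and lists were chosen with earlier results of these data known. Alternatives were another scaling, background correction, value source, detection filter, test, array weights, replicate or scan block, mean over probes, and arrays left out; the weights used and the other *Akt2* probes were chosen after seeing the data.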

Additional observations from a re-analysis of the deposited data

How the results depend on the processing

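With 3 arrays in each group, the exact permutation test cannot go below p = 0.10. Calls made without control 3 and *ob/ob* 3, or with weights computed gene by gene (0.17 for control 3, 0.082 for *ob/ob* 3, and 1.41 to 6.74 for the others), follow from which arrays were removed or weighted down and are no independent evidence of a difference between genotypes. The planned REML array weights were not run, as they did not converge. Deviations of same-numbered arrays from their group means had correlations of -0.78, -0.66, and -0.85. Control 3 and *ob/ob* 3 each resembled the other group, which by itself gives such deviations opposite signs. These values therefore cannot tell if replicate numbers pair the samples.

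Of all probes, 0 passed the adjusted threshold with limma (1245 unadjusted) and 0 with the methods' t-test (1512 unadjusted), against 1 with an intensity trend and robust estimation, 17402 with weights, and 16259 without control 3 and *ob/ob* 3. At an unadjusted p under 0.05, 705 were higher and 540 lower, against 139 and 312 with 75th percentile scaling, 10151 and 9436 with weights, 139 and 220 with the replicate block, 35 and 113 with the scan block, and 9395 and 9039 without control 3 and *ob/ob* 3. Leaving out 1 array gave 112 (without control 2) to 2188 (without *ob/ob* 3) higher and 173 to 1296 lower.

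Of the 9 genes, 1 had an unadjusted p under 0.05, against 0 with 75th percentile scaling, with trend and robust estimation, with the replicate block, and with the scan block, 8 with weights, 7 without control 3 and *ob/ob* 3, and 0 to 3 with 1 array left out (3 without control 3). After adjustment 7 passed with weights and 7 without both arrays, where 17402 and 16259 of all 35448 probes passed. Of the 121 pathway genes the 3 became 1 with 75th percentile scaling, 1 with the replicate block, 81 with weights, 80 without both arrays, and 0 to 17 with 1 array left out. The shares of all genes called in these settings are not given, so the counts are not read as particular to the members or the pathway.

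Of 274 values of member probes under alternatives, 228 kept their direction and side of the threshold. The detection filters, the t-test, the trend and robust estimation, and the replicate block could not turn a direction, since they leave the difference unchanged. Another 18 values kept their direction and passed the adjusted threshold, and 28 turned direction. Of those that turned, *Akt1* and *Pik3r1* passed the adjusted threshold with weights and without control 3 and *ob/ob* 3. Of 306 values of list genes the counts were 264 kept, 20 passed in the same direction, and 22 turned, and of 170 list medians 18 moved. The cause was not tested. With 75th percentile scaling, *Insr* probe A_55_P2173927 was at -0.24. With normexp background correction, *Tbc1d4* was at 0.048, *Pik3cd* at 0.057, and *Tbc1d1* at -0.0081. With the scan block, that *Insr* probe was at -0.51, *Pik3r1* at -0.38, *Pik3cd* at 0.14, and *Tbc1d1* at -0.48. With weights, *Pik3r1* was at -0.76, *Akt1* at -1.46, *Pik3cd* at 0.41, *Ppp2ca* at -0.24, *Tbc1d1* at -0.996, and *Scd1* at -0.79. Without control 3 and *ob/ob* 3, *Pik3r1* was at -1.12, *Akt1* at -1.88, *Tbc1d4* probe A_52_P381430 at 0.055, *Pik3cd* at 0.65, *Ppp2ca* at -0.65, *Map2k1* at -0.31, *Mapk3* at 0.12, *Tbc1d1* at -1.13, *Rhoq* at -0.32, and *Scd1* at -1.28.

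With 1 array left out, values of both signs were found for *Insr* probes A_55_P2173927 (-0.42 to 0.76) and A_52_P494514 (-1.28 to 0.24), *Irs1* probe A_52_P175242 (-2.06 to 0.16), *Pik3r1* (-0.63 to 0.70), *Akt1* (-0.87 to 1.03), *Foxo1* probe A_52_P453884 (-1.40 to 0.47), *Tbc1d4* (-1.59 to 0.58), *Pik3cd* (-0.35 to 0.42), *Map2k1* (-0.011 to 1.104), *Tbc1d1* (-0.66 to 0.44), *Scd1* (-0.17 to 1.74), the *Irs1* to *Irs2* ratio (-0.48 to 0.14), and the *Pik3ca* to *Pik3r1* ratio (-0.95 to 0.21).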
